A study of Mus musculus with 17 samples.

Results

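Keratin-associated proteins are the matrix proteins of the hair shaft, and 56 protein-coding genes of the deposited mouse skin expression table carry a name that starts with Krtap. These 56 members, of 34140 genes in the table and 19114 protein-coding ones, were taken by name alone. The table holds no gene at 0 in every library, so each member was detected in at least 1 library. For 11 members the only libraries above 0 were those of control day 9. They belong to 25 numbered subfamilies and lie on chromosomes 1 (2 genes), 7 (5), 10 (3), 11 (23) and 16 (23), and 54 of them have a single exon. The RNA came from the skin of C57/BL6j mice, in 8 irradiated and 9 control libraries taken on the days after injury. Irradiated skin, given ionizing radiation, had 3 libraries at day 3, 2 at day 6 and 3 at day 9, and control skin had 2 at day 3, 2 at day 6, 3 at day 9 and 2 at day 0. No irradiated library is labelled day 0, and the labels give neither the dose nor the time of irradiation relative to the wound, nor the age of the mice. They also do not say that the libraries of a group came from separate animals, so p-values measure the spread between these libraries, which may be technical.

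A hair is built in the follicle from matrix cells that rise, fill with hair keratins and then with keratin-associated proteins, and die. The keratin filaments come first, and the keratin-associated proteins then set between them and cross-link them through cysteines. The family is divided by composition into high-sulfur, ultrahigh-sulfur and high glycine-tyrosine proteins, a grouping worked out largely in sheep wool and human hair. Because they are made late and only in growing (anagen) follicles, the genes are near-silent in resting skin. In mouse, the homeobox factor Hoxc13 acts upstream of hair keratin and keratin-associated protein genes.

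The libraries held 25440773 to 30797409 assigned fragments, as recovered from the steps of the FPKM values (fragments scaled to gene length and to the assigned fragments of the library). All values of all 56 members were whole numbers of fragments within 0.01. Mitochondrial genes took 31.8% and 21.7% of the summed FPKM in the day 0 libraries and 8.33% to 12.6% elsewhere. The 7 epidermal keratinocyte markers summed to 2362 to 16556 FPKM per library, so markers of the labelled tissue were present in all 17. The 3 control day 9 libraries stood far apart from each other in the members, as given with each result.

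Among the 49 members with a promoter window in RefSeq (GRCm38.p6, 250 bases before to 50 after the gene start), the sequence TATAAA, the core of a TATA box, was common. Read on the gene's strand with its first base 50 to 11 bases before the start, it was present in 33 of 49 member windows (67.3%), against 2.49% of all 32851 windows of the table. Anywhere in the window and on either strand it was found in 41 of 49 (83.7%), against 13.6%. TTTAT, the core of the motif bound by Hoxc13, was found on either strand in 44 of 49 (89.8%), against 40.0% of all windows, but its reverse complement lies inside TATAAA. Counted only outside TATAAA it was in 23 of 49 (46.9%), against 33.5%. CTTTGAA was in 8 of 49 (16.3%), against 5.14%, and CTTTGTT in 7 of 49 (14.3%), against 5.85%, and both are forms of the core bound by Lef1, a factor of the hair matrix. A match here is a run of letters and not a shown binding site.

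The windows of 6 members are shown because the results turn on these genes, which come from each composition class and from both patterns of level. Capitals mark every match to any of the motifs named above, on either strand, and overlapping matches run together. All 6 lie on the minus strand, at chr16:89487903-89488202 (Krtap8-1), chr16:88877989-88878288 (Krtap19-3), chr16:89571134-89571433 (Krtap11-1), chr11:99628190-99628489 (Krtap4-1), chr11:99566581-99566880 (Krtap3-1) and chr11:99556804-99557103 (Krtap3-2), and each is written from 5′ to 3′ along its gene.
Krtap8-1: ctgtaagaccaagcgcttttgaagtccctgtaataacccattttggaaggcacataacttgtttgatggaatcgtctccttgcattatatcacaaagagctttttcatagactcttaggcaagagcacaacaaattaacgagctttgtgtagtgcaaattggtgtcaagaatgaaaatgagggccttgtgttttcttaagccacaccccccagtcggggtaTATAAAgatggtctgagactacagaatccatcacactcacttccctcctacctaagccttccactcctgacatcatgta
Krtap19-3: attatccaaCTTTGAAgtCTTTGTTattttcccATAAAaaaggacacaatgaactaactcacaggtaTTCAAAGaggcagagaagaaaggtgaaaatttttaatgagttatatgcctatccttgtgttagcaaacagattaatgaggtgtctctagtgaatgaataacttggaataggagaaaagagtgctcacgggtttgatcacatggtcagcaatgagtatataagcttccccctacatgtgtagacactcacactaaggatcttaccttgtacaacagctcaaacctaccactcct
Krtap11-1: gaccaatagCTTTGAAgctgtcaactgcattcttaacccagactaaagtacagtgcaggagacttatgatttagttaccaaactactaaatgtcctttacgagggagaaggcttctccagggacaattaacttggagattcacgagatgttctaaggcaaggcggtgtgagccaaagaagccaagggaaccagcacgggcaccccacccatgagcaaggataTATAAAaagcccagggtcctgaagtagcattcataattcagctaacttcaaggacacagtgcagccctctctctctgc
Krtap4-1: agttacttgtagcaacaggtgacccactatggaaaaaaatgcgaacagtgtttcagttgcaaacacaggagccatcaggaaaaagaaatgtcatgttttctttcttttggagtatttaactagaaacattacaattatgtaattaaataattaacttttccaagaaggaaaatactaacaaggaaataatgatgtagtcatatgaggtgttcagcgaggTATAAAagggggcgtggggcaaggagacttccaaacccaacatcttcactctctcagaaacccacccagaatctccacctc
Krtap3-1: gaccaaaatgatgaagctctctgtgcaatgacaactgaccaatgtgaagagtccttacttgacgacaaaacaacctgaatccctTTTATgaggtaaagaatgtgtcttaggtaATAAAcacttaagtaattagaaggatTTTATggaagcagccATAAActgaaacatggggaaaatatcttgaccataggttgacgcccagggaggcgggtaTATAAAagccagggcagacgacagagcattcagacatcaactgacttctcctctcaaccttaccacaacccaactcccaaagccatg
Krtap3-2: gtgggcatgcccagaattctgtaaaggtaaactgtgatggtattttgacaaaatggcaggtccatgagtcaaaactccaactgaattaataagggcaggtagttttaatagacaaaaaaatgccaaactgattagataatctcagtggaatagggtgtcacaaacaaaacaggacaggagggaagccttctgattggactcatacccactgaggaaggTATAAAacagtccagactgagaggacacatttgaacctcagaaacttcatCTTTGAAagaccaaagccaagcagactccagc
In 5 of these 6 windows TATAAA began 28 to 37 bases before the start. The window of Krtap19-3 held no TATAAA, but had CTTTGAA as well as CTTTGTT in the part farthest from the start. The windows of Krtap3-1 and Krtap3-2, neighbours whose levels followed different courses over the wound, both held TATAAA near the start, 37 and 32 bases before it, and Krtap3-1 held 5 matches to TTTAT against 1 in Krtap3-2. Krtap4-1, Krtap8-1, Krtap11-1 and Krtap19-3 also held 1 each, so this count did not separate Krtap3-2 from the other members shown.

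Keratin-associated protein RNA was concentrated in control skin at day 9. Krtap3-2 behaved differently and is described separately, and it was left out here after the values were seen. The other 55 members collected 9505 fragments over the 17 libraries, and 9231 of them (97.1%) fell in the 3 control day 9 libraries. Replicates 1, 2 and 3 of that group held 2043, 6813 and 375, so most came from replicate 2. The 8 irradiated libraries together held 141 fragments of these 55 members, of which 103 were in irradiated day 9. With Krtap3-2 included, all 56 members had 10575 fragments, of which 2121, 6933 and 386 were in control day 9 replicates 1, 2 and 3. As summed FPKM over all 56 members, irradiated day 9 libraries had 1.85, 3.12 and 1.62, against 89.5, 331 and 19.7 in control day 9 libraries (replicates 1, 2 and 3). The groups did not overlap, and the means were 2.2 ± 0.811 in irradiated day 9 and 146.6 ± 163.1 FPKM in control day 9 (SD, n = 3 each), so the spread among control libraries was as large as their mean. In the other groups the sums were 15.8 and 7.51 at control day 0, 1.09, 1.71 and 0.894 at irradiated day 3, 2.09 and 1.70 at control day 3, 0.567 and 1.32 at irradiated day 6, and 1.30 and 2.60 at control day 6. Outside control day 9 most of each sum was Krtap3-2, except in control day 6 replicate 1 and in irradiated day 9 replicates 1 and 2. A lower level in bulk skin may mean fewer follicle cells that make these RNAs or less RNA in each, and these cannot be told apart here.

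The number of members with any fragment followed the same course. In irradiated day 9 libraries 18, 24 and 6 members were above 0, against 50, 55 and 50 in control day 9 libraries. The 2 control day 0 libraries had 20 and 17, and the libraries of days 3 and 6 in both arms had 4 to 8. Of the 56 members, 47 were above 0 in every control day 9 library, and 4 (Krtap3-2, Krtap3-3, Krtap11-1 and Krtap16-1) in every irradiated day 9 library. At 0 in all 3 irradiated day 9 libraries were 25 members, a further 23 had 1 to 3 fragments in total there, and 8 had 4 or more. For 48 members the 2 higher control day 9 values lay above all 14 libraries of the other groups, where 8.16% of all genes did so, and for 31 members all 3 did, where 3.91% of all genes did so. Krtap13 was above 0 in 1 library alone, irradiated day 6 replicate 3, at 0.0818 FPKM.

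**Figure D1:**
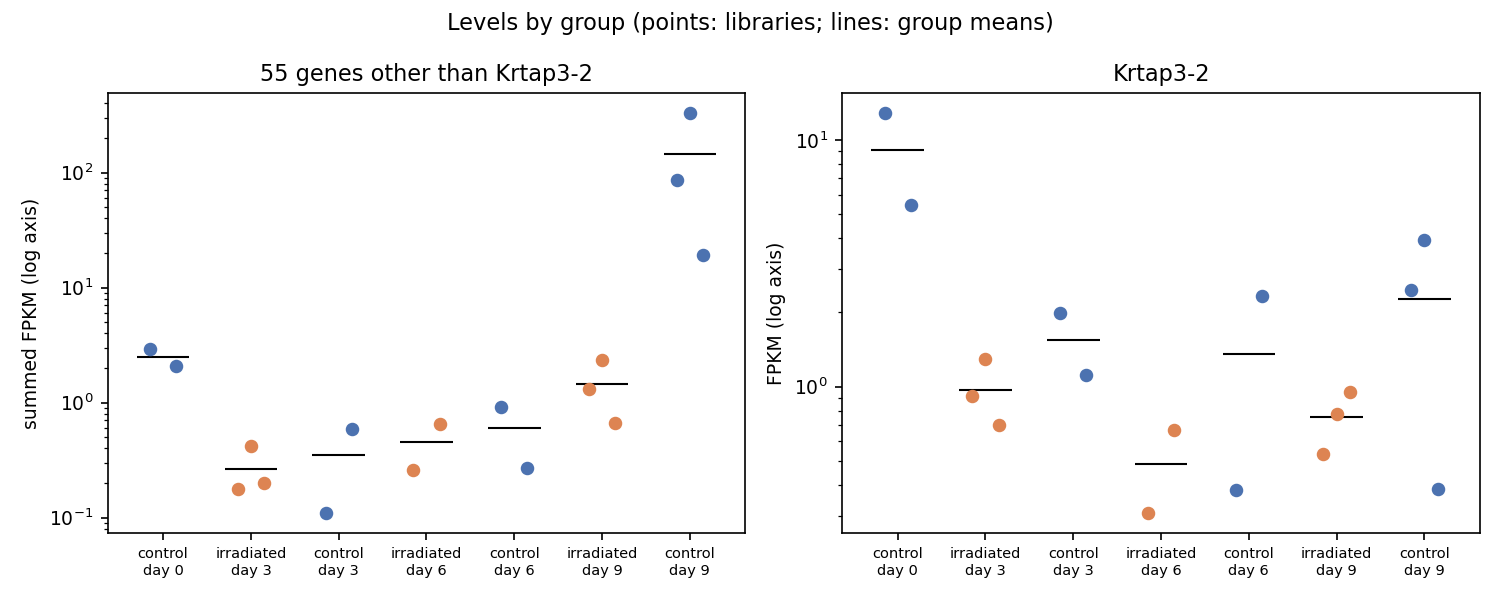
Summed FPKM of the 55 members other than Krtap3-2 (left) and FPKM of Krtap3-2 (right) on log axes, with 1 point a library (orange irradiated, blue control) and a line at each group mean. On the left the 3 control day 9 libraries lie above all 14 others, and on the right the 2 control day 0 libraries do.

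To ask how irradiation altered wound skin at each day, irradiated and control libraries of the same day were compared by a limma-trend fit on log2(FPKM + 1) over all 17 libraries. It was run on the 15271 genes with at least 1 FPKM in at least 2 libraries, with p-values adjusted over all of them and a threshold of 0.05. This filter kept 28 of the 56 members, and 27 of these passed it through the control day 9 libraries alone. Such genes had to be high in that group, so the counts of calls are a description and not support for a change of the family. Counts and medians over all 56 members share this limit in part, since 11 members were above 0 in control day 9 only. They too are a description.

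At day 9, 14 of the 28 tested members were lower in irradiated skin and none was higher, where 3.05% of all tested genes were lower and 2.33% higher. limma-voom on recovered fragments called 10. Without the filter, all 56 members had a median log2 fold change of -1.03 against 0.00 over all 34140 genes, and 8 members were lower, where 1.04% of all genes were lower and 0.524% higher. Over all 56 members, irradiated values lay wholly below control values for 35, where 10.2% of all genes did so. The calls were fragile. They numbered 25 without control day 9 replicate 3, the library with the lowest sum, 2 (of 6 members still tested) without replicate 1 and 1 (of 4) without replicate 2. They numbered 3, 3 and 0 without irradiated day 9 replicates 1, 2 and 3, and none passed when only the day 9 libraries were fitted, though 20 members then had an unadjusted p under 0.05. The 17-library fit pools the spread over all groups, and these genes were near 0 in most of them.

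Members were put in composition classes by subfamily number as in human and sheep, a choice made after their values were seen, which left 7 members unplaced. Of these 7, 2 were tested and Krtap28-10 had a log2 fold change of -1.47 (limma adjusted p = 0.0454).

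Among the 15 high glycine-tyrosine genes, small proteins that fill the space between filaments in the hair cortex, 4 of 7 tested members were lower in irradiated day 9 skin, where 3.05% of all tested genes were. Of the 15, 11 lay wholly lower, where 10.2% of all genes did. Krtap7-1 (chr16:89507704-89508323, minus strand, mm10) was the highest member by mean. It had 0.235, 0.176 and 0 FPKM in irradiated day 9 libraries, against 15.9, 51.5 and 2.27 in control day 9 libraries. That is 7 fragments in all against 1287. The groups did not overlap, and control day 9 was 169-fold higher by the means. The log2 fold change was -3.66 (SE 0.671, limma adjusted p = 0.0122). It ranged from -4.72 to -2.72 when single libraries were left out, with the call lost without control day 9 replicate 1 (limma adjusted p = 0.0516) or irradiated day 9 replicate 3 (0.0647). It was also lost by limma-voom (adjusted p = 0.0806). Its neighbour Krtap8-1 (chr16:89487374-89487952, minus strand) had 0.063, 0.126 and 0 FPKM in irradiated day 9 libraries, against 13.4, 49.5 and 1.18 in control day 9 libraries. The groups did not overlap, and 3 fragments stood against 1103. Its log2 fold change was -3.46 (SE 0.758, limma adjusted p = 0.0257), and the call was lost on leaving out any day 9 library except control replicate 3 (limma adjusted p from 0.0543 to 0.101) and by limma-voom (adjusted p = 0.122).

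Krtap22-2 had 0.096, 0.192 and 0 FPKM in irradiated day 9 libraries, against 4.45, 16.9 and 0.855 in control day 9 libraries, a log2 fold change of -2.37 (SE 0.554, limma adjusted p = 0.0328). Krtap19-3 was at 0 in all 3 irradiated day 9 libraries, against 0.494, 8.30 and 1.92 FPKM in control day 9 libraries. By the means it was at least 52.9-fold lower in irradiated skin, with a floor of 3 fragments over the group, and its log2 fold change was -1.78 (SE 0.448, limma adjusted p = 0.0415). The whole of subfamily 19, 7 genes side by side on chromosome 16, had no fragment in irradiated day 9 skin. In the 3 control day 9 libraries it had 30, 525 and 63. Krtap6-1, Krtap6-5 and Krtap19-5 missed the threshold, with log2 fold changes of -1.52, -1.55 and -1.76 and limma adjusted p of 0.0642, 0.0698 and 0.0629.

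Among the 17 high-sulfur genes, 3 of 9 tested members were lower in irradiated day 9 skin, where 3.05% of all tested genes were. Of the 17, 9 lay wholly lower, where 10.2% of all genes did. Krtap11-1 (chr16:89570176-89571183, minus strand) had 0.145, 0.289 and 0.168 FPKM in irradiated day 9 libraries, against 7.32, 24.2 and 1.22 in control day 9 libraries. It was above 0 in every library of both groups and the groups did not overlap. With 17 fragments against 981 it was 54.4-fold higher in control day 9, a log2 fold change of -2.69 (SE 0.585, limma adjusted p = 0.0252). Krtap1-5 had 0.0351, 0 and 0 FPKM in irradiated day 9 libraries, against 1.91, 6.05 and 0.451 in control day 9 libraries, a log2 fold change of -1.61 (SE 0.386, limma adjusted p = 0.036). Krtap13-1 also fell, by 1.56 on the log2 scale (limma adjusted p = 0.0415). Krtap3-1 had 1 fragment against 228 but missed the threshold, with a log2 fold change of -1.88 and a limma adjusted p of 0.0535. Its control day 9 values were 3.18, 9.25 and 0.239 FPKM, and the lowest of them belonged to replicate 3.

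Among the 17 ultrahigh-sulfur genes, in which cysteine is most abundant, 6 of 10 tested members were lower in irradiated day 9 skin, where 3.05% of all tested genes were. Of the 17, 10 lay wholly lower, where 10.2% of all genes did. Krtap4-1 on chromosome 11 had the smallest adjusted p of the family in this comparison. It was at 0 in all 3 irradiated day 9 libraries, against 2.15, 4.30 and 0.711 FPKM in control day 9 libraries. By the means it was at least 68.2-fold lower in irradiated skin, and its log2 fold change was -1.61 (SE 0.283, limma adjusted p = 0.0111). The fold change is compressed by the pseudocount of 1 and was -4.32 with a pseudocount of 0.1. Krtap4-7 (log2 fold change -1.49, SE 0.27) had 2 fragments against 189. Krtap9-3 had 0.0481, 0.096 and 0 FPKM in irradiated day 9 libraries, against 2.14, 7.23 and 0.476 in control day 9 libraries, a log2 fold change of -1.68 (SE 0.42, limma adjusted p = 0.041). Krtap17-1 missed the threshold (limma adjusted p = 0.0642), and its irradiated replicate 3 at 0.311 FPKM nearly reached control replicate 3 at 0.332.

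**Figure D2:**
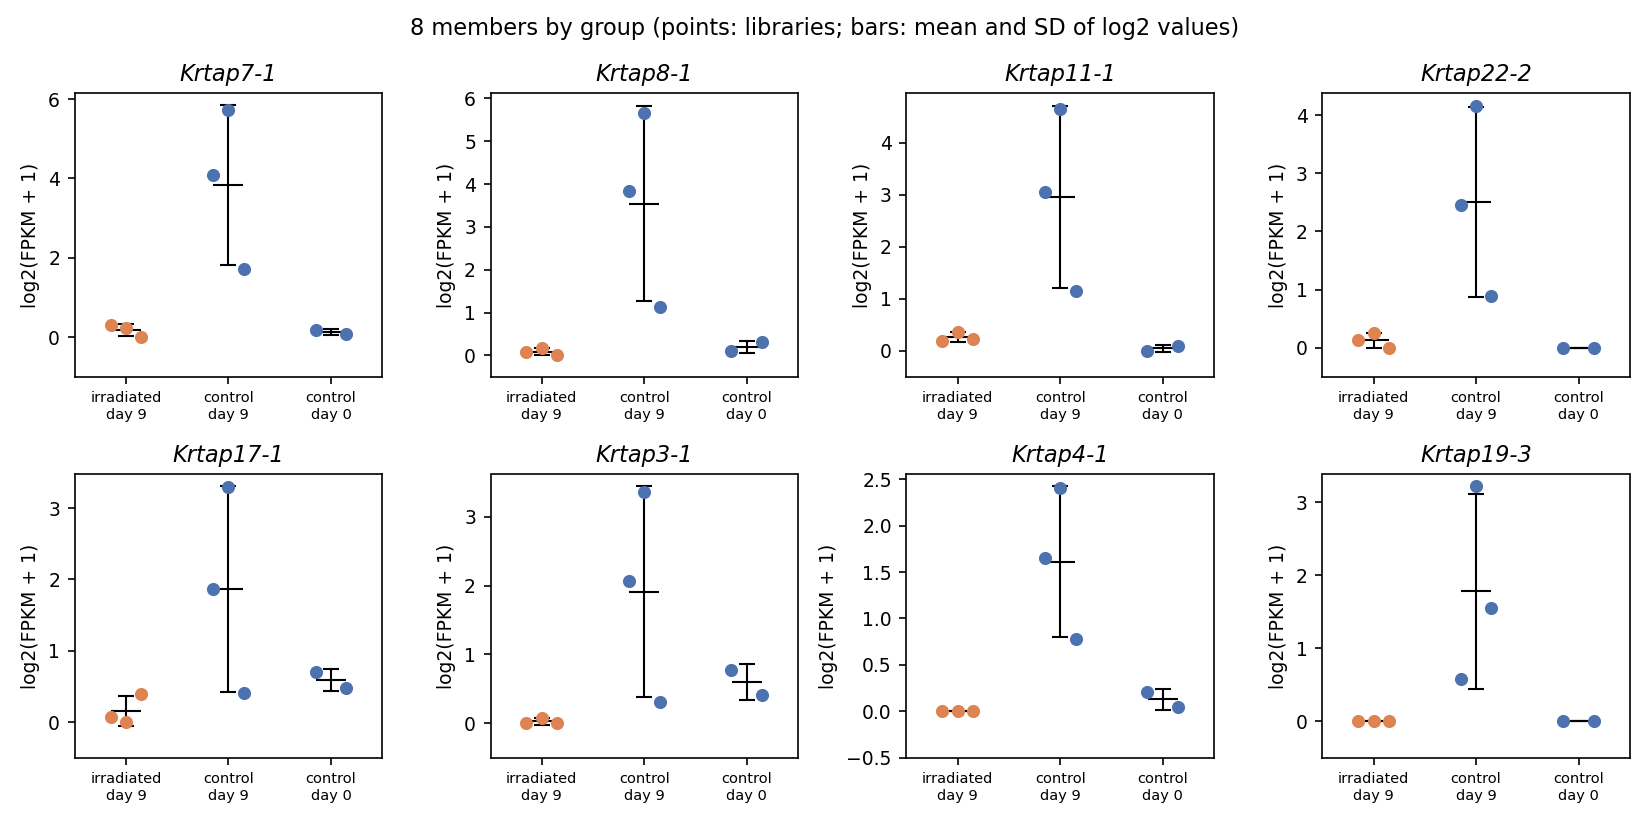
Level of 8 members as log2(FPKM + 1) in irradiated day 9, control day 9 and control day 0 libraries, with points for libraries and bars for the mean and SD of the log2 values (n = 3, 3 and 2). For each gene the control day 9 points spread over a range several times that of the other groups, and in Krtap17-1 the lowest of them lies next to an irradiated point.

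At days 3 and 6 the members other than Krtap3-2 were near 0 in both arms, and no difference in them was detectable at this depth. Krtap3-2 had 9 to 70 fragments a library on these days and was not called either. By limma no tested member passed at day 3 or at day 6, none had an unadjusted p under 0.05, and limma-voom on recovered fragments also gave 0 on both days. In this fit 1.56% of all tested genes were higher and 0.288% lower in irradiated skin at day 3, and 0.151% higher and 0.124% lower at day 6. The member with the smallest adjusted p on both days was Krtap3-2, with a log2 fold change of -0.36 (limma adjusted p = 0.861) at day 3 and -0.54 (limma adjusted p = 0.662) at day 6. Averaged over days 3, 6 and 9, no member passed by limma or by limma-voom, 9 had an unadjusted p under 0.05 by limma and 2 by limma-voom, while 2.57% of all tested genes were lower. The lowest adjusted p was 0.104, for Krtap4-1 at -0.53 on the log2 scale, and 21 members passed without control day 9 replicate 3. An F test for a change in the irradiated-to-control difference over days 3, 6 and 9 called no member, with 15 at an unadjusted p under 0.05 in limma and 8 in limma-voom, while 0.0131% of all tested genes passed. Krtap4-1 (limma adjusted p = 0.213) and Krtap4-7 (limma adjusted p = 0.219) came nearest. So the presence of calls at day 9 and their absence at days 3 and 6 is not shown to be a difference between days. The F test called 0 to 20 members when single libraries were left out. The 20 came without control day 9 replicate 3, the control day 9 library with the lowest sum. Removing that library narrows the spread of its group, so this count cannot show a difference between days.

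To follow the wound over time in unirradiated skin, control day 9 was compared with control day 0 and day 3. Against day 0, 24 of the 28 tested members were higher at day 9 and 1, Krtap3-2, was lower, where 30.4% of all tested genes were higher and 18% lower (24% and 23.2% with median-of-ratios scaling). Without the filter 26 of 56 were higher, where 13.6% of all genes were higher and 9.58% lower, and the median log2 fold change over the 56 was 1.04 against 0.00 over all genes. For 42 of the 56 members the control day 9 values lay wholly above those of day 0, where 24.1% of all genes did so. Against day 3, 21 of 28 were higher, where 8.02% of tested genes were, and without the filter 13 of 56 were, where 3.53% of all genes were. Against day 3, 46 of 56 lay wholly above, where 15% of all genes did. With only the libraries compared in the fit none passed in either comparison, with 6 and 7 members at an unadjusted p under 0.05. Calls against day 0 numbered 8 and 14 without control day 0 replicates 1 and 2, and 6 (of 6 members still tested), 4 (of 4) and 26 (of 26) without control day 9 replicates 1, 2 and 3. Calls against day 3 numbered 3 and 0 without control day 3 replicates 1 and 3, and 5 (of 6), 3 (of 4) and 25 (of 26) without control day 9 replicates 1, 2 and 3. The 2 comparisons and that of irradiation at day 9 share the control day 9 libraries and are not independent of each other.

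Krtap7-1 was at 15.9, 51.5 and 2.27 FPKM at control day 9, against 0.127 and 0.0541 at control day 0, a log2 fold change of 3.71 (SE 0.75, limma adjusted p = 0.00156). Krtap22-2 was at 0 in both day 0 libraries, so control day 9 was at least 51.9-fold higher. Krtap4-7, also at 0 in both, was at least 39.0-fold higher at day 9. A few members were already present in day 0 skin. Krtap17-1 had 2.65, 8.85 and 0.332 FPKM at control day 9, against 0.62 and 0.396 at control day 0, and the groups overlapped, with day 9 replicate 3 the lowest (log2 fold change 1.27, limma adjusted p = 0.0751). Krtap3-1 had 0.716 and 0.333 FPKM at day 0 and likewise overlapped (log2 fold change 1.31, limma adjusted p = 0.0769). Of the 56 members, 31 were at 0 in both day 0 libraries. In irradiated skin, the members other than Krtap3-2 had 103 fragments at day 9 against 18 at day 3. They summed to 1.32, 2.34 and 0.667 FPKM in irradiated day 9 libraries, against 0.176, 0.421 and 0.198 in irradiated day 3 libraries, with no overlap. This sum was not tested. No single tested member was called between these days, at values near 0 where the fold change is compressed. By limma 0 of 28 passed, with 0 at an unadjusted p under 0.05 and 0 by limma-voom, where 0.38% of all tested genes were higher and 0.583% lower. The 2 members with the smallest adjusted p were Krtap3-3 at 0.0992, 0.297 and 0.138 FPKM in irradiated day 9 libraries, against 0.0441, 0.0464 and 0 in irradiated day 3 libraries, and Krtap11-1. These 2 were also the members whose irradiated day 9 values lay wholly above irradiated day 3, where 8.71% of all genes did so and 10.4% lay wholly below.

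Krtap3-2, a high-sulfur gene on chromosome 11 (chr11:99555823-99556853, minus strand), followed a different course relative to day 0. It had 2.46, 3.94 and 0.385 FPKM at control day 9, against 12.8 and 5.43 at control day 0, and 1070 of the 10575 member fragments of the study were its own. It was the highest member in every library outside control day 9. At control day 3 it had 1.98 and 1.11 FPKM, and at control day 6 0.381 and 2.33. In irradiated libraries it had 0.913, 1.29 and 0.696 at day 3, 0.308 and 0.665 at day 6, and 0.531, 0.778 and 0.950 at day 9. Both day 0 libraries were above all 15 others. Next came control day 9 replicates 2 and 1, above every library of days 3 and 6 and of irradiated day 9. Within control day 9 it thus had the order of most members, replicate 2, then 1, then 3. Against day 0 its log2 fold change was -1.71 (SE 0.495, limma adjusted p = 0.0129) at control day 9, -1.91 (SE 0.542, limma adjusted p = 0.0153) at control day 3 and -2.14 (SE 0.542, limma adjusted p = 0.00943) at control day 6. At days 3 and 6 it was the only member called, where 12.4% and 14.2% of all tested genes were lower (19.4% and 19.5% with median-of-ratios scaling). All 3 calls were lost without control day 0 replicate 1, with limma adjusted p of 0.154, 0.138 and 0.09. The day 3 call was also lost without control day 3 replicate 3 and the day 6 call without control day 6 replicate 1. The fall after day 0 was not particular to Krtap3-2. The other members together had 2.95 and 2.08 FPKM at control day 0, against 0.110 and 0.589 at control day 3 and 0.922 and 0.272 at control day 6. Krtap3-2 differed from them in staying below its day 0 level at control day 9. The day 0 libraries also differed from the rest in mitochondrial share, as given above, and in skeletal muscle RNA. The 5 muscle markers, all of which fell at control days 3, 6 and 9, summed to 1099.8 to 3868 FPKM after day 0, against 18305 and 15417 at control day 0, and their part in the fall of Krtap3-2 was not tested.

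Krtap3-1 and Krtap3-3 flank Krtap3-2 on the chromosome. As in most members, their values in control day 9 replicates 1 and 2 lay above all libraries of the other groups. Their control day 9 replicate 3 did not. At day 9 Krtap3-3 overlapped between the arms, with irradiated replicate 2 at 0.297 FPKM and control replicate 3 at 0.196. Krtap3-3 had 2.34, 6.16 and 0.196 FPKM at control day 9, against 0.160 and 0 at control day 0, and was higher at day 9 by 1.51 on the log2 scale (SE 0.491, limma adjusted p = 0.0231). Krtap3-2 and Krtap3-3 share sequence. Of the 100-base words of Krtap3-2, 25.1% also occur in Krtap3-3, which is 36.7% of those of Krtap3-3, so fragments could be split between them. Krtap3-1 shares none. At day 9 irradiated and control values of Krtap3-2 overlapped, and its log2 fold change was -0.72 (SE 0.443, limma adjusted p = 0.36).

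Within control day 9 the 3 libraries differed in amount and in make-up. For 53 of 56 members replicate 2 held the highest value of all 17 libraries, and for 40 the order was replicate 2, then 1, then 3. For 12 members replicate 3 exceeded replicate 1. Relative to assigned fragments, the 23 members on chromosome 16 were 4.30 times higher in replicate 2 than in replicate 1 (95% exact interval 4.02 to 4.60) and the 23 on chromosome 11 were 2.32 times higher (2.15 to 2.52). These intervals cover counting error only, as do all that follow.

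**Figure D3:**
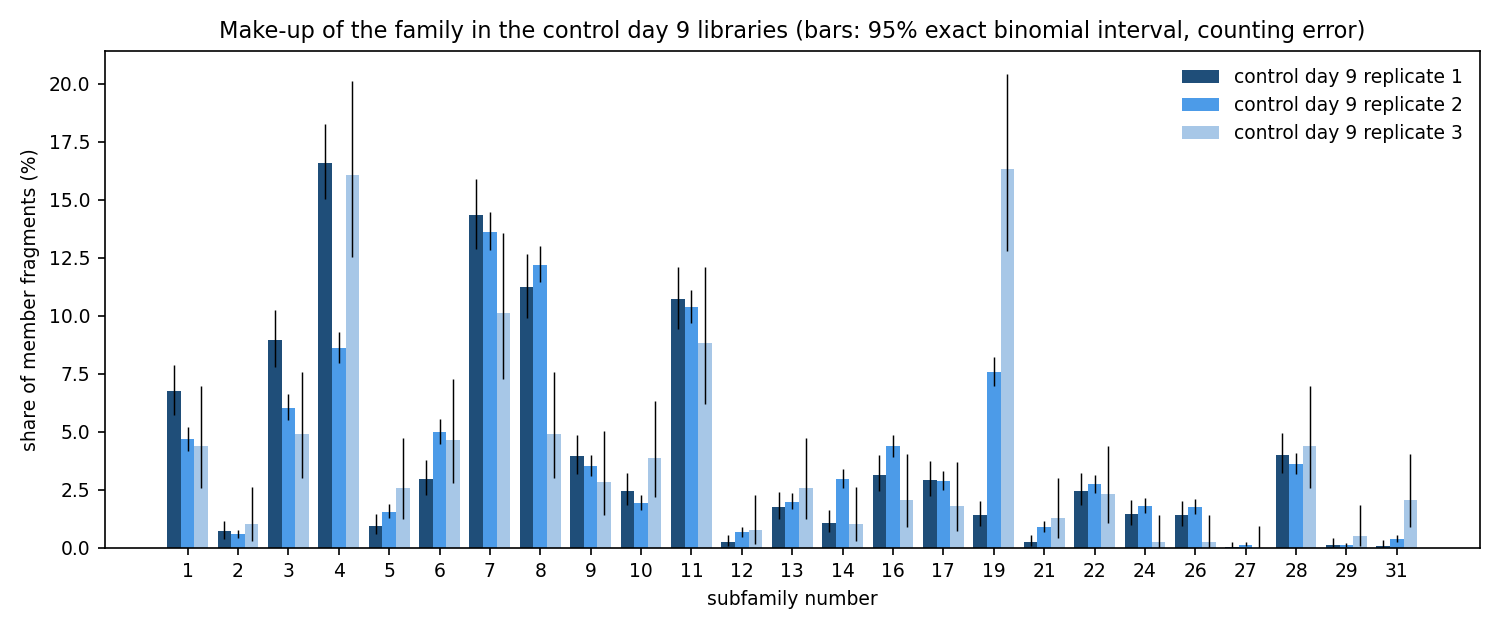
Share of all member fragments taken by each subfamily in the 3 control day 9 libraries, with 95% exact binomial intervals for counting error. Subfamily 19 takes 1.41%, 7.57% and 16.3% in replicates 1, 2 and 3, while subfamily 4 takes 16.6%, 8.60% and 16.1%.

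Subfamily 19 departed most clearly from the common order. It was 18.2 times higher in replicate 2 than in replicate 1 (12.6 to 27.3) and 0.43 times as high in replicate 1 as in replicate 3 (0.27 to 0.67). It thus took 1.41%, 7.57% and 16.3% of member fragments in replicates 1, 2 and 3. Krtap19-1, Krtap19-4 and Krtap19-9a were at 0 in replicate 1, while Krtap19-4 had 8.91 FPKM in replicate 2 and 0.831 in replicate 3. Subfamily 4, with 8 members, varied less. It was 1.76 times higher in replicate 2 than in replicate 1 (1.54 to 2.02) and took 16.6%, 8.60% and 16.1% of member fragments. Subfamily 8, which is Krtap8-1 alone, was 3.70 times higher in replicate 2 than in replicate 1 (3.20 to 4.29) and 11.3 times higher in replicate 1 than in replicate 3 (7.07 to 19.1). Subfamily 11 was 3.30 and 6.01 times higher in the same comparisons. The high glycine-tyrosine genes together made up 43.7%, 54.8% and 54.3% of the summed member FPKM in replicates 1, 2 and 3, the high-sulfur genes 30.4%, 25.8% and 21.1%, and the ultrahigh-sulfur genes 20.1%, 12.7% and 17.3%. With a single library at each make-up, no test between them was made.

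The members were set beside other products of the growing follicle: 15 hair shaft keratins, the filament proteins they bind, and 9 genes of the inner root sheath, the layer that moulds the shaft. Inner root sheath genes summed to 68.0, 157 and 74.0 FPKM in irradiated day 9 libraries, against 737, 1000.2 and 62.4 in control day 9 libraries, so the lowest control library lay below all irradiated ones. Hair shaft keratins summed to 5.58, 11.4 and 7.37 FPKM in irradiated day 9 libraries, against 51.3, 115 and 4.32 in control day 9 libraries, with the same overlap. The sum of the 55 members other than Krtap3-2 did not overlap, although 21 of the 56 members singly did. The hair keratin sum was largely Krt35 in irradiated day 9 libraries. Without Krt35 and Krt84, left out after their values were seen, the other 13 summed to 1.07, 2.25 and 0.981 FPKM in irradiated day 9 libraries, against 26.9, 75.9 and 2.66 in control day 9 libraries, with no overlap. Since that choice was made knowing the values, this lack of overlap is a description and no support for a fall of the hair keratins. The 55 members other than Krtap3-2 came to 1.94%, 1.5% and 0.901% of the inner root sheath sum in irradiated day 9 libraries, against 11.8%, 32.7% and 31% in control day 9 libraries. Relative to the hair keratins they came to 23.6%, 20.6% and 9.05% in irradiated day 9 libraries, against 169.7%, 284% and 448% in control day 9 libraries. Neither ratio overlapped between the 2 groups at day 9. In control replicate 3 the 55 members summed to 19.3 FPKM with hair keratins at 4.32, while in irradiated replicate 2 they summed to 2.34 FPKM with hair keratins at 11.4. That sets 1 library against 1 and was not tested. At control day 0, where all 3 sums were low, the members came to 57.3% and 134% of the sheath sum.

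**Figure D4:**
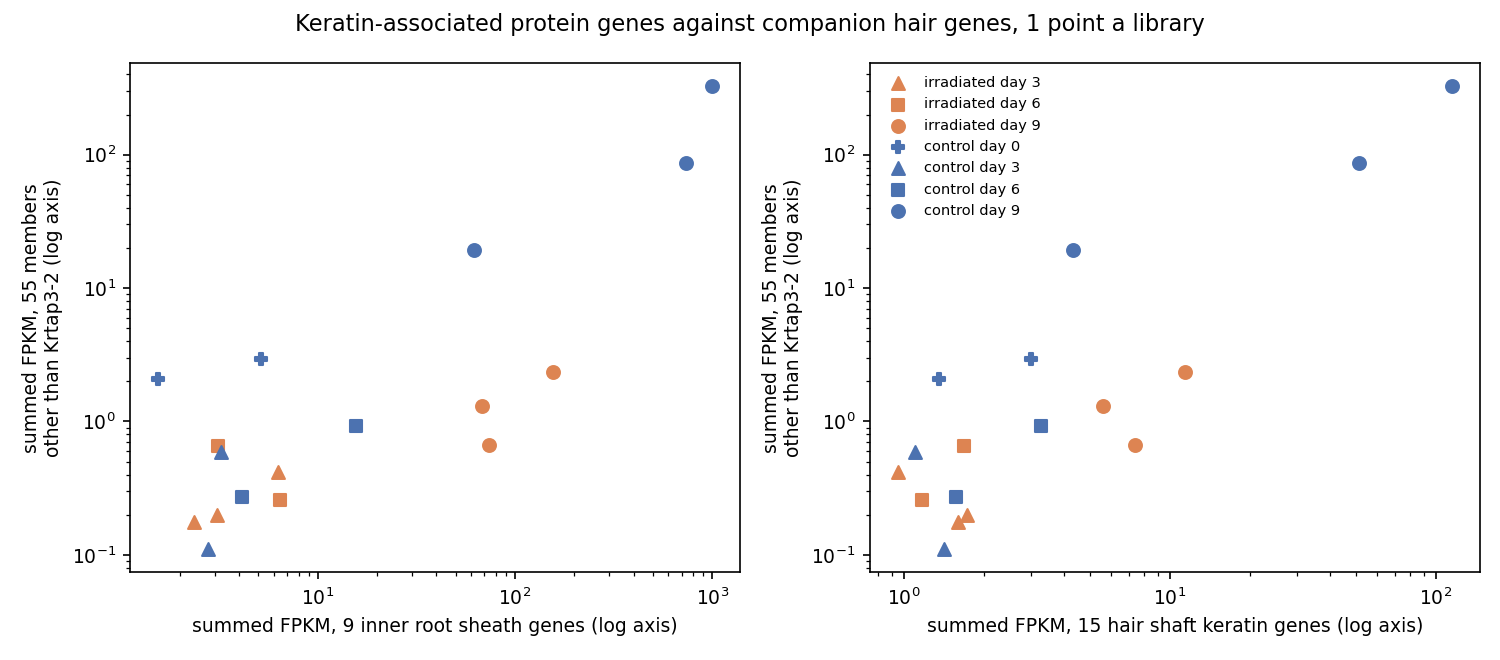
Summed FPKM of the 55 members other than Krtap3-2 against the summed FPKM of 9 inner root sheath genes (left) and 15 hair shaft keratins (right), on log axes, with 1 point a library (orange irradiated, blue control, shape for the day). Control day 9 replicate 3 has a sheath sum of 62.4 FPKM, against 68.0 to 157 in the 3 irradiated day 9 libraries. Its members sum to 19.3 FPKM, against 0.667 to 2.34. This rests on 1 control library and was not tested.

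The single keratins behaved unequally. Krt35, a keratin made early in the hair matrix and lower cortex, had 3.52, 7.80 and 5.46 FPKM in irradiated day 9 libraries, against 24, 38.6 and 0.904 in control day 9 libraries, so the irradiated libraries lay above control replicate 3. Krt31, made higher in the cortex, had 0.0692, 0.138 and 0.214 FPKM in irradiated day 9 libraries, against 4.4, 12 and 0.502 in control day 9 libraries, with no overlap. Of the 15 hair keratins, 6 (Krt31, Krt34, Krt40, Krt81, Krt83 and Krt86) lay wholly lower in irradiated day 9 skin, as did 2 of the 9 sheath genes (Krt26 and Krt72), where 10.2% of all genes did. Another 1 of the 15 hair keratins lay wholly higher, where 10.2% of all genes did. Krt71 of the inner root sheath had 15.3, 44.1 and 15.9 FPKM in irradiated day 9 libraries, against 245, 332 and 21.2 in control day 9 libraries. Hoxc13 had 2.06, 4.89 and 4.36 FPKM in irradiated day 9 libraries, against 10.2, 13.1 and 1.31 in control day 9 libraries. In the limma fit, 2 of 12 tested hair keratins and 2 of 8 tested sheath genes were lower in irradiated day 9 skin, where 3.05% of all tested genes were. Higher at control day 9 than at day 0 were 10 of 12 and 8 of 8, where 30.4% of all tested genes were. Of 21 follicle regulators, 0 passed for irradiation at day 9. At control day 9 against day 0, 10 of the 21 were higher and 3 lower, where 30.4% of all tested genes were higher and 18% lower.

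Markers of other skin cells also moved with day 9. The 5 adipocyte markers summed to 375, 683 and 1043 FPKM in irradiated day 9 libraries, against 220, 156 and 148 in control day 9 libraries. Of the 5, 2 passed as higher in irradiated skin, where 2.33% of all tested genes did. The 6 sebaceous gland markers summed to 256, 470 and 603 FPKM in irradiated day 9 libraries, against 151, 105 and 236 in control day 9 libraries, and 0 of 6 passed. The 6 melanocyte markers summed to 20.5, 63.4 and 60.2 FPKM in irradiated day 9 libraries, against 62.5, 110 and 7.38 in control day 9 libraries, the lowest again being control replicate 3. The 6 fibroblast markers summed to 6263, 4439 and 3424 FPKM in irradiated day 9 libraries, against 8332, 8823 and 7145 in control day 9 libraries, with no overlap, and 0 of 6 passed. The 7 keratinocyte markers summed to 12422, 14019 and 13629 FPKM in irradiated day 9 libraries, against 11804, 9276 and 6321 in control day 9 libraries, also with no overlap, and 0 of 7 passed. At control day 9 against day 0, 4 of 6 fibroblast, 5 of 6 melanocyte and 4 of 7 keratinocyte markers were higher, where 30.4% of all tested genes were. In the same comparison 5 of 6 sebaceous and 3 of 5 adipocyte markers were lower, where 18% of all tested genes were. The part of these cells in the results was not tested.

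Across all 17 libraries the genes whose log2(FPKM + 1) was most like the log2 of the summed members plus 1, by Pearson's r, were Sncaip (0.95), Crym (0.95), Ptn (0.94), Kera (0.93), Egfl6 (0.93) and Msrb3 (0.92). This is a description over libraries that share their groups, with no test. Ptn had 20.2, 24.2 and 20.8 FPKM in irradiated day 9 libraries, against 146, 139 and 80.0 in control day 9 libraries, and so varied less within control day 9 than the members did. Crym had 0.387, 0.838 and 0.349 FPKM in irradiated day 9 libraries, against 4.49, 4.21 and 1.47 in control day 9 libraries.

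Many of these genes arose by duplication, and how the fragments that fit several copies were assigned is not given in the sources used here. Of the 56 members, 34 share no 100-base word with any other of the 492 annotated genes of their clusters, including Krtap7-1, Krtap8-1, Krtap11-1, Krtap22-2 and Krtap19-3, and 13 share over 10% of theirs. Krtap6-1 shares 15.6%. Krtap4-13 shares 62.8%, most with Gm11554, and its values are uncertain. Krtap10-10 shares 38.9%, most with Gm2696, whose exons overlap its own on the same strand, and is uncertain too. Krtap24-1 overlaps the lincRNA Gm49688 on the other strand, and since the Smart-Seq2 libraries do not mark strand, its fragments cannot be told from that gene's.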

How the data were processed

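RNA from 17 mouse skin libraries was measured by paired-end sequencing on an Illumina NovaSeq after TRIzol extraction and Smart-Seq2 library making, per the labels' protocols. Alignment used HISAT2 2.2.1 and mm10, per the submitters' processing notes; which counter and annotation were used is not given in the sources. The authors deposited FPKM per gene, with no counts. Fragments were recovered from FPKM steps with GENCODE M21 exon lengths or, for 13 members, the deposited span, and 91.351% of nonzero values over all genes were whole within 0.01. They give counting intervals and limma-voom only.

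Groups and replicate numbers came from the titles. Tests were limma 3.58.1 moderated tests (limma-trend, R 4.3.3, package data.table, version 1.17.8) on log2(FPKM + 1), 7 group means, two-sided, Benjamini-Hochberg over 15271 genes. On simulated data the fit recovered the changes put in, but these went only into genes with higher mean levels than any member. The simulation thus does not test the fit for genes near 0. A sum over members was not tested. Fold changes from FPKM near 0 are compressed. Exact binomial intervals are 95%. Alternatives were pseudocounts, filters, scalings, a fit of the 2 groups alone, a replicate block, array weights, limma-voom and each library left out. Replicate numbers were not treated as pairs. Figures used Python 3.11.15, pandas 2.3.3, numpy 2.4.6, scipy 1.17.1 and matplotlib 3.10.9.

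Members and lists were chosen with earlier results of these data known. Named members are the 10 highest by mean, the highest of each subfamily averaging at least 1 FPKM, up to 8 with the largest change among those passing in each comparison or, where none passed, the 2 smallest adjusted p; others named were chosen after their values were seen, as were the class sums by subfamily number. Protein composition was not analysed here.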

Additional observations from a re-analysis of the deposited data

How the results depend on the processing

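The summed FPKM of the family in each library moved by less than 1 SD of its group under median-of-ratios scaling and on rescaling to the nuclear genes. At control day 9 that SD was 163.1 FPKM on a mean of 146.6, with a lowest sum of 19.7. The limit there was too wide to show that scaling matters little. Median-of-ratios scaling moved the median log2 fold change of all tested genes from 0.15 to 0.04 for control day 9 against day 0. Counts of called members depended on the settings. For irradiation at day 9, against 14 called, there were 6 with a pseudocount of 5, 8 of 56 with no filter, 3 of 4 with a filter at 5 FPKM, 4 of 5 with a filter on the mean, 0 with only the groups compared, 8 with the replicate block and 28 with array weights, and 0 to 25 on leaving out single libraries. For control day 9 against day 0, against 25 called, there were 4, 5 and 0 with the filter at 5 FPKM, the filter on the mean and only the groups compared, and 4 to 26 without single libraries. For control day 9 against day 3, against 21 called, there were 8 with a pseudocount of 5, 13 with no filter, 3 and 4 with the other filters, 0 with only the groups compared, and 0 to 25 without single libraries. For control days 3 and 6 against day 0, the 1 call became 0 with only the groups compared, with a pseudocount of 0.1 at day 3, and in 2 of 4 cases without a library (0 to 1). The averaged effect gave 0 to 21 calls without single libraries, and the F test 0 to 20 and 16 with array weights. Days 3 and 6 and irradiated day 9 against day 3 gave 0 under every alternative run.

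Of the log2 fold changes of named members under alternatives, 417 kept direction and side of the threshold, 125 lost the call, 6 gained it and 2 changed sign: Krtap22-2 at day 3 was 0.041 without control day 3 replicate 3 (range -0.49 to 0.041 without single libraries), and Krtap3-2 at day 6 was 0.10 without control day 6 replicate 2 (range -1.17 to 0.10), both uncalled. The cause was not tested. Same-numbered libraries of the 2 arms deviated together in 1 pair, day 9 replicate 2 (r = 0.298 across genes), and not in the other 5 (-0.122 to 0.0685), so the numbers were not taken as pairs and the replicate block, which left 23 higher and 1 lower at control day 9 against day 0 and 21 against day 3, is no paired result. Outside control day 9 most members other than Krtap3-2 had too few fragments to compare.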

Other observations

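The deposited table also lists 17 protein-coding genes that its UniProt column describes as keratin-associated proteins but that carry no Krtap name, among them predicted genes of the same clusters. Chosen after the values were seen, they summed to 0.167, 0.199 and 0.469 FPKM in irradiated day 9 libraries, against 13.2, 38.8 and 1.56 in control day 9 libraries. In the other 11 libraries they summed to 0 to 0.659. The order of the control day 9 libraries was that of the named members.

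With Krtap3-2 left out of the sum, also a choice made after seeing the data, the most similar genes over the 17 libraries by Pearson's r were Crym (0.98), Krt72 (0.96), Dlk1 (0.95), Gm11568 (0.95), AC161180.2 (0.95) and Gm11563 (0.95). Krt72, a keratin of the inner root sheath, had 0.183, 0.695 and 0.0678 FPKM in irradiated day 9 libraries, against 9.12, 14.6 and 0.961 in control day 9 libraries, with no overlap. The genes most like Krtap3-2 were Trim2 (0.93), Abca5 (0.92) and Rab3a (0.92). Rab3a had 3.97, 3.16 and 2.59 FPKM at control day 9, against 7.33 and 5.07 at control day 0.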
